A study of Mus musculus with 3 samples.

Results

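Itaconate synthesis and arginine use in lung myeloid cells were followed through 7 genes, chosen by symbol for their roles: Acod1, Nos2, Arg1, Arg2, Ass1, Slc7a2 and Odc1. The choice was made with earlier results of these data known. All 7 were among the 55357 features counted. The cells came from wild-type C57BL/6 mice and their RNA was counted by droplet single-cell sequencing of 3' ends in 3 libraries. The mice had received, into the trachea, LPS (4 mg/kg) together with Reg3g (6 µg), LPS alone at the same dose, or PBS, in a volume of 50 µL, and lungs were taken 24 h later. LPS is the endotoxin of Gram-negative bacteria, and Reg3g is a secreted lectin of mucosal surfaces. Each library held the pooled cells of 3 mice, so each group had 1 library and no test between groups was possible. Live CD45+ Ly6G- F4/80+ cells with CD11b or CD11c had been sorted after enzymatic digestion of the lung. The Ly6G- gate would remove neutrophils. Intervals given below are at 95% and cover counting error only, not the spread between mice. Those of levels and ratios treat UMIs as independent, which makes them too narrow for a gene whose UMIs sit in few cells.

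Macrophages exposed to LPS divert the citrate cycle intermediate cis-aconitate into itaconate, a reaction carried out by the enzyme that Acod1 encodes. The same cells take up arginine through cationic amino acid transporters, such as the one encoded by Slc7a2, and rebuild it from citrulline, for which Ass1 provides the first step. Inducible nitric oxide synthase (Nos2) turns arginine into nitric oxide and citrulline, while the arginases (Arg1 in the cytosol, Arg2 in mitochondria) turn it into urea and ornithine. Odc1 makes putrescine, the first polyamine, from ornithine.

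On GRCm38 (mm10), by GENCODE M21, Acod1 lies at chr14:103046977-103056573, Nos2 at chr11:78920787-78960254, Ass1 at chr2:31470207-31520672, Slc7a2 at chr8:40862396-40922308, Arg2 at chr12:79130777-79156301 and Odc1 at chr12:17544794-17551505, all on the + strand. Arg1 lies at chr10:24915221-24927484 on the - strand. Each is annotated as protein coding. Arg2 overlaps the antisense gene Gm48780 and the end of Vti1b on the other strand, Slc7a2 overlaps the noncoding gene Gm26584 on the other strand, and a small nucleolar RNA gene, Gm22748, lies within Odc1.

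The 250 bases before the RefSeq start are shown for Acod1, Ass1 and Odc1, the 3 of 7 genes matched in the RefSeq promoter table (GRCm38.p6), because the genes differ in their levels after LPS and these stretches differ in base composition. All run 5′ to 3′ on the + strand. The RefSeq start of each lies downstream of the GENCODE start given above, so the last bases of each stretch lie inside the gene as GENCODE has it, and distances below are from the RefSeq start. Capitals mark matches to one of 9 motifs searched on both strands. The stretches are chr14:103046762-103047011 for Acod1, chr2:31470020-31470269 for Ass1 and chr12:17544623-17544872 for Odc1.
Acod1: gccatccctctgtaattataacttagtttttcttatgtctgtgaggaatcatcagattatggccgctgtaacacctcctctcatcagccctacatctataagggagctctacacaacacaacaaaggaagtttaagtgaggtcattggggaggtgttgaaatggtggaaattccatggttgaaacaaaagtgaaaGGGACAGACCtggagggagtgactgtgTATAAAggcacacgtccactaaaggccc
Ass1: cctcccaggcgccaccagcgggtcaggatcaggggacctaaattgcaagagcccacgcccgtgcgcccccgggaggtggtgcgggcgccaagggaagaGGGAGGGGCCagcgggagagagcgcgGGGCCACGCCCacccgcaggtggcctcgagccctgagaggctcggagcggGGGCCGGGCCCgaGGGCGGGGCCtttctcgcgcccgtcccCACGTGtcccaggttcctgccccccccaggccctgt
Odc1: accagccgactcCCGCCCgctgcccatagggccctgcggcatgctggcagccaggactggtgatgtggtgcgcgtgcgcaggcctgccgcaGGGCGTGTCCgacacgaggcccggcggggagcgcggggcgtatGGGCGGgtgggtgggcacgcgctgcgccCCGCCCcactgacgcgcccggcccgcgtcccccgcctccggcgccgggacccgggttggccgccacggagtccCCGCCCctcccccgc
The Acod1 stretch was 44.4% G and C with 2 CpG dinucleotides, below the median of 52.4% and 6.0 over 32851 promoters of this length. The Ass1 stretch was 75.6% G and C with 23 CpG, and the Odc1 stretch 80.0% with 35. The Acod1 stretch held the TATA-box letters TATAAA with the first base at -28 from the start, a motif in 12.4% of promoters, and the Ass1 and Odc1 stretches held none. Ass1 held a CACGTG (E-box) at -36, a motif in 6.02% of promoters. GGGCGG (GC box), in 32.7% of promoters, had 1 match in Ass1 and 4 in Odc1. A loose NF-kB pattern, GGG and CC with 5 bases between them, had 1 match in Acod1, 6 in Ass1 and 1 in Odc1, and 45.8% of promoters held it. In Ass1 the GGGCGG match lies within one of the NF-kB matches. The AP-1 motif TGANTCA had no match in the 3 stretches and is in 6.75% of promoters. The STAT motifs, TTC and GAA with 3 or with 4 bases between them, had none and are in 7.02% and 5.85% of promoters. The C/EBP motif TTGCNNCAA had none and is in 1.74%. The interferon response element, a pair of GAAA with 2 bases between them, had none and is in 2.98%. A match is a description of these letters and was not tied to any level below.

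After filtering, 9281 cells of LPS with Reg3g, 13015 of LPS and 7860 of PBS remained, with medians of 5459, 4216 and 5923.5 UMIs per cell. At most 37 barcodes were shared between any pair of libraries. Levels are counts of a gene scaled to all UMIs of the same cells (CPM), and since 3' counting does not correct for transcript features, they are compared within a gene only. Alveolar-macrophage-like cells numbered 4119, 5035 and 3596 in LPS with Reg3g, LPS and PBS, and all 16 alveolar macrophage markers were detected in them. Monocyte-like cells numbered 4206, 6079 and 2314, and all 10 classical monocyte markers reached 10 CPM in them. The 12 neutrophil markers summed to 1330.7, 807.5 and 800.1 CPM in monocyte-like cells, 173.7, 158.0 and 103.2 CPM in alveolar-macrophage-like cells, and 67372 and 29804 CPM in a neutrophil-like class of 136 and 132 cells that PBS lacked. Lymphoid-like cells (88, 123 and 150, median 1786.5, 1376 and 1942 UMIs) gave the level of free RNA, except for Odc1, which such cells can express, and for Acod1 in PBS. That level is loosely set where these cells held few UMIs of a gene. Most LPS and PBS cells of a class fell into different clusters. Alveolar-macrophage-like cells lay mainly in clusters 7, 9 and 10 after LPS and in cluster 18 in PBS, and monocyte-like cells in clusters 0, 1, 3 and 13 after LPS and in clusters 5 and 17 in PBS.

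Acod1, the gene of itaconate synthesis, was the farthest apart between LPS and PBS of the genes counted in alveolar-macrophage-like cells. It had 144.8 CPM [140.7, 149.1] in alveolar-macrophage-like cells of LPS with Reg3g, 184.5 [179.8, 189.3] of LPS and 0.283 of PBS, from 4636, 5760 and 8 UMIs. Both LPS libraries stood far above PBS, and LPS alone was the highest. The LPS level was 653-fold that of PBS (log2 9.35 [8.37, 10.56]), or a log2 of 8.35 with cells thinned to 1000 UMIs. LPS with Reg3g was 1.27-fold lower than LPS (log2 -0.35 [-0.41, -0.29]). A UMI of Acod1 was found in 45.1%, 48.6% and 0.195% of these cells. At a fixed 1000 UMIs per cell the shares were 12.4%, 15.2% and 0.0556%, against 3.41% and 1.63% in lymphoid-like cells of LPS with Reg3g and LPS.

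Monocyte-like cells had the same order of Acod1 levels. Their level was 295.4 CPM [287.8, 303.2] in LPS with Reg3g, 342.4 [334.9, 350.0] in LPS and 3.72 [2.56, 5.23] in PBS, from 5647, 7857 and 33 UMIs. LPS was 91.9-fold higher than PBS (log2 6.52 [6.03, 7.06]), and LPS with Reg3g was lower than LPS by a log2 of -0.21 [-0.26, -0.16]. Of the 33 PBS UMIs, 23 came from 1 cell with mast cell or basophil markers. Without the 9, 6 and 12 cells holding such markers, a step added after seeing the data, the levels were 295.9, 342.5 and 1.14 CPM and the log2 ratio of LPS to PBS was 8.23. At a clustering resolution of 0.5 it was 4.68.

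Interstitial-macrophage-like cells (123, 157 and 506 cells), named for complement and other tissue macrophage genes, had 213.1 CPM [176.4, 255.2] in LPS with Reg3g, 232.4 [195.1, 274.7] in LPS and 0.439 in PBS, the last from 1 UMI. Neutrophil-like cells had 1159.4 CPM [1065.5, 1259.5] in LPS with Reg3g and 1030.9 [946.2, 1121.2] in LPS, the highest Acod1 levels of any class. They were 136 and 132 cells and held 4.92% and 3.65% of their library's Acod1 UMIs, so most of the transcript lay in the macrophage and monocyte classes. Lymphoid-like cells ran the other way, with 51.9 CPM in LPS with Reg3g, 9.0 in LPS and 257.2 in PBS, from 10, 2 and 83 UMIs. In PBS, 82 of the 83 UMIs were in 6 cells with mast cell or basophil markers.

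**Figure D1:**
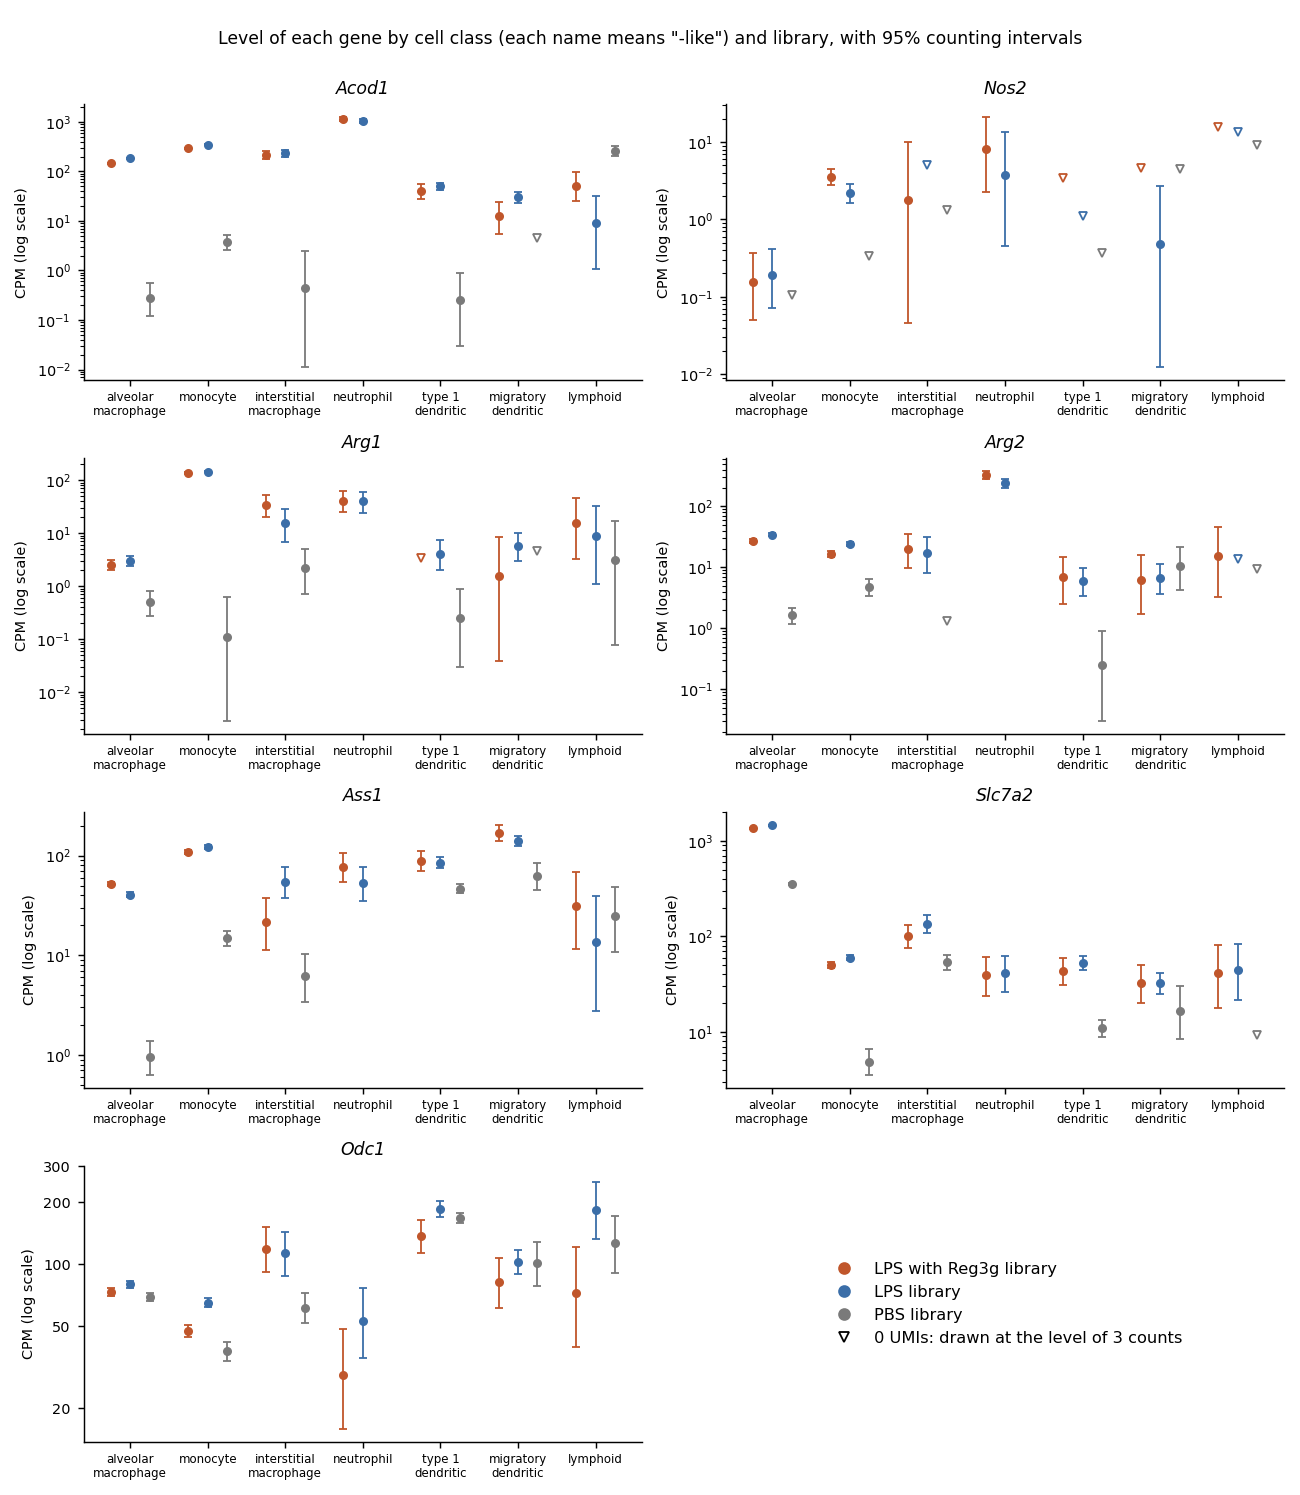
Level of each gene (CPM, log axis) by cell class, with 1 point per library (LPS with Reg3g, LPS and PBS from left to right) and exact Poisson 95% intervals for counting error. A count of 0 is drawn as a triangle at 3 counts. Acod1 stands above PBS in LPS libraries in alveolar-macrophage-like (144.8, 184.5 and 0.283 CPM) and monocyte-like cells (295.4, 342.4 and 3.72 CPM), Slc7a2 is highest in alveolar-macrophage-like cells, and Odc1 is present in all 3 libraries. The class named for type 1 dendritic cells also holds cells with type 2 genes.

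Most of the arginine transporter transcript Slc7a2 lay in alveolar-macrophage-like cells. The gene, which encodes the cationic amino acid transporter CAT2, had 1362.8 CPM [1350.1, 1375.7] in LPS with Reg3g, 1470.0 [1456.6, 1483.5] in LPS and 356.5 [349.6, 363.5] in PBS. It was thus abundant in the PBS library too, and both LPS libraries were above it. LPS was 4.12-fold higher than PBS (log2 2.04 [2.01, 2.07]), and LPS with Reg3g was lower than LPS by a log2 of only -0.11 [-0.13, -0.09]. These cells held 92.4%, 92.2% and 96.5% of their library's Slc7a2 UMIs. At least 1 UMI was found in 94.9%, 95.3% and 87.0% of them, and at least 10 UMIs in 46.6%, 39.7% and 1.42%, so that PBS cells differed in amount more than in the share of cells.

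Monocyte-like cells had 50.3, 60.1 and 4.85 CPM of Slc7a2 in LPS with Reg3g, LPS and PBS. Lymphoid-like cells had 41.6 and 45.0 CPM in LPS with Reg3g and LPS. At 1000 UMIs per cell a Slc7a2 UMI was found in 4.16% and 4.82% of monocyte-like cells of LPS with Reg3g and LPS, against 3.41% and 4.88% of lymphoid-like cells. The level in the monocyte class as a whole was therefore at background and is not read as expression.

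Ass1, the argininosuccinate synthase that starts the return of citrulline to arginine, was higher after LPS in both main classes. In alveolar-macrophage-like cells it had 52.1 CPM [49.7, 54.7] in LPS with Reg3g, 40.5 [38.3, 42.8] in LPS and 0.953 in PBS, from 1669, 1263 and 27 UMIs. LPS was 42.4-fold higher than PBS (log2 5.41 [4.86, 6.01]). Here LPS with Reg3g was the highest library, above LPS by a log2 of 0.37 [0.26, 0.47], or 1.29-fold. A UMI was found in 27.1%, 19.0% and 0.695% of cells, and at 1000 UMIs per cell in 4.15%, 3.79% and 0.111%. Lymphoid-like cells had 31.2, 13.5 and 24.8 CPM, from 6, 3 and 8 UMIs, so the level of free RNA is loosely set. It too was higher in LPS with Reg3g than in LPS (log2 1.21 [-1.02, 3.83]). How much of the Ass1 ratio between these 2 libraries was free RNA was not tested.

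In monocyte-like cells Ass1 had 108.1 CPM [103.5, 112.9] in LPS with Reg3g, 122.1 [117.6, 126.7] in LPS and 14.8 [12.4, 17.5] in PBS. LPS exceeded PBS by a log2 of 3.05 [2.79, 3.31], with the PBS level below that of lymphoid-like cells, which rests on 8 UMIs. LPS with Reg3g was below LPS by a log2 of -0.17 [-0.26, -0.09], the opposite side from the alveolar class, and the difference between the classes was not tested.

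Among the enzymes that consume arginine, Nos2 was nearly absent. Monocyte-like cells held 68 UMIs (3.56 CPM [2.76, 4.51]) in LPS with Reg3g, 50 (2.18 [1.62, 2.87]) in LPS and 0 in PBS, which were 87.2% and 84.8% of all Nos2 UMIs of the LPS libraries. LPS was at least 6.44-fold higher than PBS, taking 3 counts as the most that a count of 0 allows in the PBS library. LPS with Reg3g was above LPS by a log2 of 0.71 [0.16, 1.26], from these few UMIs. With cells thinned to 1000 UMIs it was 1.44, from only 15 and 8 UMIs. A single cell held 12 of the 68 UMIs in LPS with Reg3g and another 8 of the 50 in LPS, so the size of this ratio is loosely set. Alveolar-macrophage-like cells held 5 UMIs in LPS with Reg3g, 6 in LPS and 0 in PBS. Neutrophil-like cells held 4 and 2 in LPS with Reg3g and LPS.

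The Nos2 UMIs sat in 33 monocyte-like cells of LPS with Reg3g and 31 of LPS. A UMI of Acod1 was present in 27 of the 33 (81.8% [64.5, 93.0]) and in 25 of the 31 (80.6% [62.5, 92.6]), against 32.9% and 38.7% of the whole class. However, 72.7% and 100% of these Nos2 cells lay in a single cluster (cluster 9, described below), where 68.8% and 66.5% of all cells held Acod1, inside the intervals of the Nos2 cells. Ass1 was present in 60.6% [42.1, 77.1] and 77.4% [58.9, 90.4] of the Nos2 cells, against 53.2% and 50.0% of cluster 9. Arg1 was present in 24.2% [11.1, 42.3] and 45.2% [27.3, 64.0] of them, against 25.5% and 21.1%. For both genes the cluster 9 share lay inside the interval in LPS with Reg3g and below it in LPS. The median depth of the Nos2 cells was 5589 and 5657 UMIs, against 4034.5 and 3223 in the class. The part of depth in the co-detection was not tested for these cells.

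Arg1, the cytosolic arginase, was held by few cells. Monocyte-like cells had 138.0 CPM [132.7, 143.3] in LPS with Reg3g, 144.9 [140.0, 149.9] in LPS and 0.113 [0.00286, 0.629] in PBS, from 2637, 3325 and 1 UMIs. The ratio of LPS to PBS was a log2 of 10.33 with an interval of 7.85 to 15.63, which the single PBS UMI makes wide, and 9.43 with cells weighted equally. LPS with Reg3g and LPS were apart by a log2 of -0.07 [-0.15, 0.00]. Only 288, 424 and 1 cells of the class held a UMI, that is 6.85%, 6.98% and 0.0432%. The 100 cells with most Arg1 held 83.4% of its UMIs in LPS with Reg3g and 73.9% in LPS, and single cells held up to 147 and 103 UMIs.

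The monocyte-like class held 95.1% of the library's Arg1 UMIs in both LPS libraries. Alveolar-macrophage-like cells had 2.56, 3.04 and 0.494 CPM in LPS with Reg3g, LPS and PBS, below the 15.6, 9.0 and 3.1 CPM of lymphoid-like cells, and this is read as background.

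Arg2, the mitochondrial arginase, was higher in LPS than in PBS in both main classes, at lower levels than in neutrophil-like cells. Alveolar-macrophage-like cells had 27.2 CPM [25.4, 29.0] in LPS with Reg3g, 34.2 [32.1, 36.3] in LPS and 1.62 [1.19, 2.17] in PBS. LPS was 21.0-fold higher than PBS (log2 4.39 [3.97, 4.85]), and LPS with Reg3g was below LPS by a log2 of -0.33 [-0.46, -0.20]. Monocyte-like cells had 16.6, 24.2 and 4.74 CPM, with a log2 ratio of LPS to PBS of 2.35 [1.90, 2.84] and of LPS with Reg3g to LPS of -0.54 [-0.75, -0.34]. Lymphoid-like cells had 3 UMIs (15.6 CPM) in LPS with Reg3g and 0 in LPS and in PBS. The monocyte-like level in LPS with Reg3g was close to this, and its ratio to LPS is not read as a difference in expression. With 3 UMIs the level of free RNA is loosely set, so it could not settle how much of the Arg2 of either main class in LPS with Reg3g was free RNA. Neutrophil-like cells had 326.5 CPM [277.6, 381.6] in LPS with Reg3g and 240.2 [200.3, 285.8] in LPS, the highest Arg2 levels of any class. Because Arg2 overlaps an antisense gene and no source used here gives the strand setting of the counting, its counts carry that uncertainty.

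Between LPS and PBS, Odc1 had the smallest ratio of the genes counted in both main classes. Alveolar-macrophage-like cells had 73.4 CPM [70.4, 76.4] in LPS with Reg3g, 80.1 [77.0, 83.3] in LPS and 69.7 [66.6, 72.8] in PBS. LPS was above PBS by a log2 of 0.20 [0.12, 0.29], and LPS with Reg3g was below LPS by a log2 of -0.13 [-0.21, -0.05]. In monocyte-like cells the levels were 47.6, 65.2 and 37.9 CPM, with log2 ratios of 0.78 [0.61, 0.96] for LPS to PBS and -0.45 [-0.57, -0.33] for LPS with Reg3g to LPS. None of these reached 2-fold.

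Counted together, 4 of the 5 genes with at least 10 CPM were at least 2-fold higher in LPS than in PBS in alveolar-macrophage-like cells (Acod1, Slc7a2, Ass1 and Arg2) and 0 were lower. The background over all 7841 genes counted in that class was 5.73% higher and 14.0% lower by the same measure. The median log2 ratio of all these genes was -0.25, and 0.08 after scaling by the median of ratios, while the median of the 5 was 4.39. In monocyte-like cells 5 of 6 genes were at least 2-fold higher (all but Odc1; Slc7a2 is among them with its level at background) and 0 lower, against 10.7% higher and 8.49% lower of 7679 genes. The median of the 6 was 3.34, against 0.03 for all genes. In the alveolar class Acod1, Ass1 and Arg2 reached 10 CPM only in LPS, with 0.283, 0.953 and 1.62 CPM in PBS. In the monocyte class Acod1, Arg1, Arg2 and Slc7a2 did so, with 3.72, 0.113, 4.74 and 4.85 CPM in PBS. Genes this low in PBS could be counted only by being higher in LPS, so their calls were fixed by the minimum. The genes were also chosen with earlier results of these data known, and these counts and medians are descriptions.

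For LPS with Reg3g against LPS, which shares the LPS library with the comparison above, 0 of 5 genes in alveolar-macrophage-like and 0 of 6 in monocyte-like cells were at least 2-fold apart. The background over all genes was 0.0419% higher and 0.0699% lower in alveolar-macrophage-like cells, and 0.108% and 0.0949% in monocyte-like cells. The median log2 ratio was -0.13 for the 5 genes and -0.24 for the 6, against 0.04 for all genes in both classes. With 1 library per group the spread between mice is unknown, and ratios of this size cannot be set against it.

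**Figure D2:**
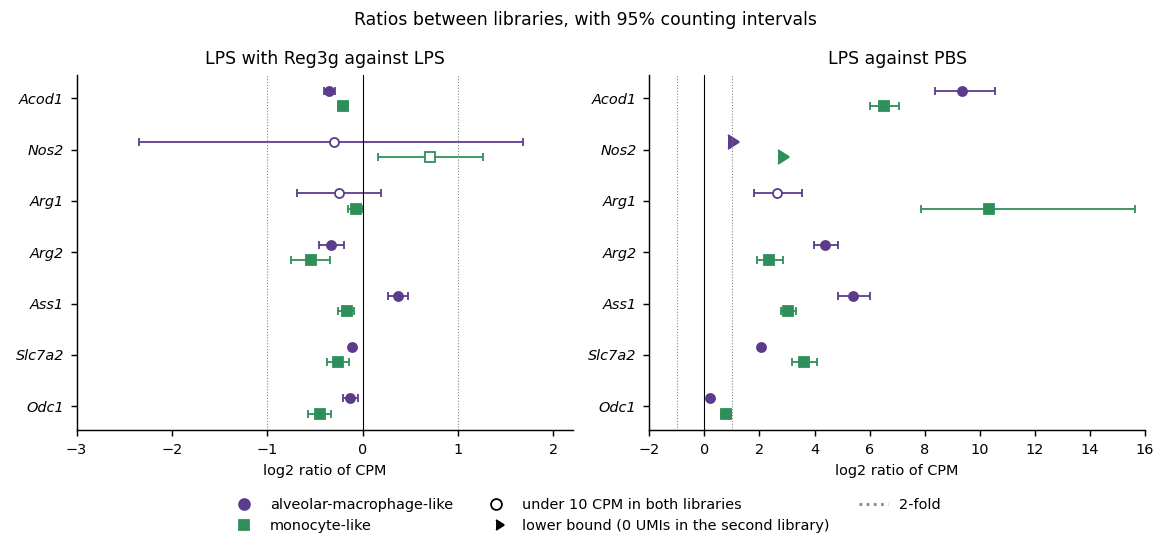
Log2 ratio of each gene in alveolar-macrophage-like and monocyte-like cells for LPS against PBS and for LPS with Reg3g against LPS, with 95% intervals for counting error. The ratio of LPS to PBS is 9.35 for Acod1 in alveolar-macrophage-like cells and 10.33 for Arg1 in monocyte-like cells. The ratios of LPS with Reg3g to LPS lie within 2-fold as point values, with Ass1 at 0.37 in alveolar-macrophage-like and -0.17 in monocyte-like cells.

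The classes were not uniform, so the genes were also read in clusters drawn without the 7 genes and without the pathway lists used below. Among monocyte-like cells 1 cluster, number 9, held most of the Arg1 and Nos2 UMIs. It had 868 cells of LPS with Reg3g, 1551 of LPS and 7 of PBS, and was led by the pyrimidine enzyme Upp1, the chemokines Ccl12, Ccl2 and Ccl7, and Serpinb2, with Arg1 and Acod1 themselves among its leading genes. It made up 21.1% and 25.9% of monocyte-like cells of LPS with Reg3g and LPS, and held 83.9% and 84.5% of their library's Arg1 UMIs, 74.4% and 84.8% of the Nos2 UMIs, 31.3% and 33.2% of the Acod1 UMIs and 27.0% and 34.9% of the Ass1 UMIs.

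In cluster 9, Acod1 had 857.5 CPM in LPS with Reg3g and 795.9 in LPS (log2 0.11 [0.05, 0.17]), and Arg1 had 558.6 and 474.7 CPM (log2 0.23 [0.16, 0.31]). Over the monocyte-like class 10 cells held 25.3% and 20.9% of the Arg1 UMIs, so the Arg1 interval does not cover the sampling of cells. Ass1 had 266.2 and 265.9 CPM (log2 0.00 [-0.11, 0.11]). Within this cluster Acod1 was thus not lower with Reg3g, unlike in the class as a whole. Slc7a2 had 132.0 and 134.1 CPM there, above the lymphoid-like cells. Nos2 had 13.9 and 8.03 CPM (log2 0.79 [0.22, 1.37]), and Odc1 had 79.2 and 91.3 CPM (log2 -0.20 [-0.40, -0.01]).

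The other monocyte clusters of the LPS libraries had less of both Acod1 and Arg1. Cluster 1 (1108, 1891 and 1 cells), led by the classical monocyte genes F13a1, Ly6c2 and Vcan, had 144.4 CPM of Acod1 in LPS with Reg3g and 203.0 in LPS (log2 -0.49 [-0.61, -0.37]), and 34.6 and 14.3 CPM of Arg1 (log2 1.27 [0.93, 1.63]). Cluster 0 (1932, 2130 and 4 cells), led by the nonclassical monocyte genes Ace and Treml4, had 118.7 and 133.5 CPM of Acod1 and 8.27 and 6.44 CPM of Arg1. In the cycling cluster 2 (183, 400 and 4 cells), Arg1 had 24.8 and 79.6 CPM (log2 -1.68 [-2.23, -1.17]) and Odc1 50.3 and 96.7 CPM (log2 -0.94 [-1.33, -0.57]). The sign of the Arg1 ratio of LPS with Reg3g to LPS thus differed between clusters, and these differences were not tested. Lymphoid-like cells had 15.6 and 9.0 CPM of Arg1, from 3 and 2 UMIs. Cluster 0 lay below these levels and its Arg1 is read as background. Clusters 1 and 2 lay above them, but so few UMIs set the level of free RNA loosely, and its part in their Arg1 ratios was not tested.

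The PBS monocytes lay in clusters 10 and 16, with Ccr2 among the leading genes of the first and Ace and Cd300e among those of the second. Cluster 10 had 16.6 CPM of Ass1, 42.4 of Odc1 and 1.13 of Acod1. Cluster 16 had 5.03 CPM of Ass1 and 17.6 of Odc1. The Ass1 levels lie below the 24.8 CPM of PBS lymphoid-like cells, which rests on 8 UMIs in a class that also held cells with mast cell or basophil markers. PBS alveolar-macrophage-like cells had 0.953 CPM of Ass1 and interstitial-macrophage-like cells 6.15, so the level of free RNA is loosely set. Whether the Ass1 of clusters 10 and 16 was their own or free RNA was not tested.

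**Figure D3:**
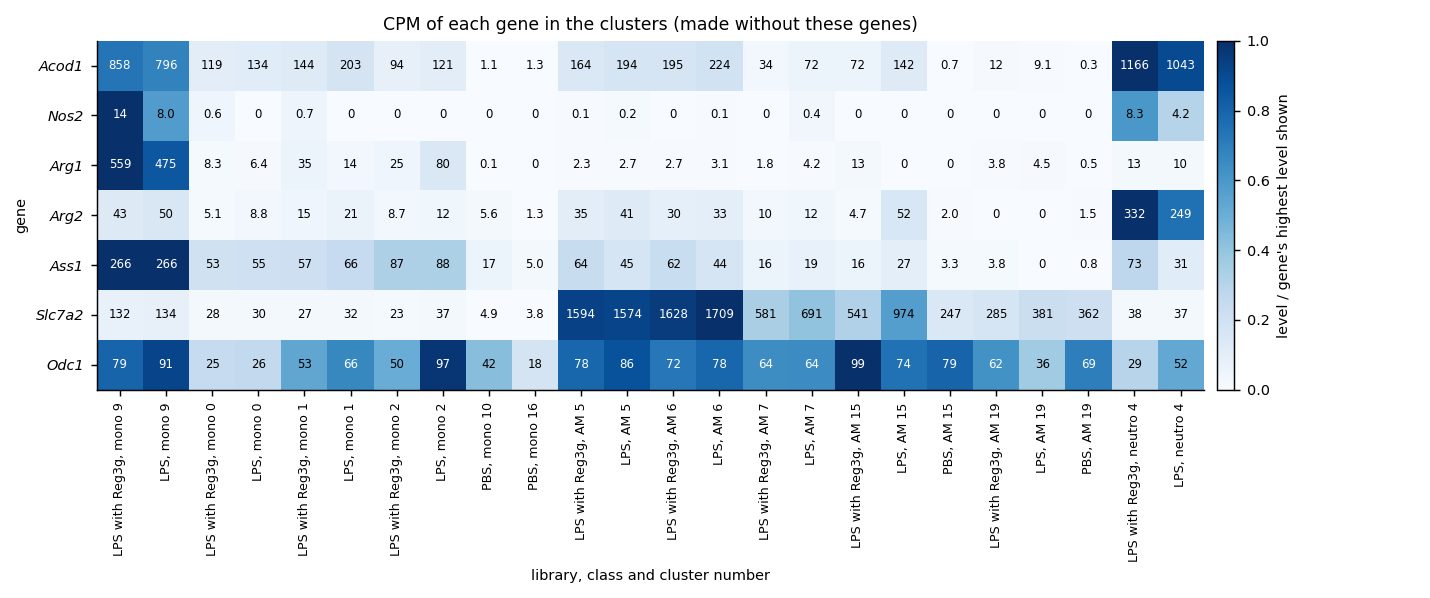
Level (CPM, printed in each cell, with the colour showing the level relative to the gene's highest) of each gene in clusters drawn without these genes, for LPS with Reg3g, LPS and PBS, in groups of at least 50 cells. Cluster 9 stands out among monocyte clusters for Acod1 (857.5 and 795.9 CPM in LPS with Reg3g and LPS) and Arg1 (558.6 and 474.7 CPM).

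Giving LPS with Reg3g the cluster makeup of LPS moved some class ratios. In monocyte-like cells the log2 ratio of LPS with Reg3g to LPS was -0.22 for Acod1 before and -0.04 after, -0.21 and -0.04 for Ass1, -0.06 and 0.22 for Arg1, and -0.46 and -0.33 for Odc1, over the cells of these clusters. The ratios of Acod1 and Ass1 in the class therefore moved with the cluster makeup. In alveolar-macrophage-like cells the ratio moved little, with -0.35 and -0.27 for Acod1 and 0.37 and 0.46 for Ass1.

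Among alveolar-macrophage-like cells of the LPS libraries, clusters 5 (1789, 2583 and 0 cells, led by Cxcl3 and Fstl1) and 6 (1185, 1456 and 0 cells, led by Ccl5) had high levels of Acod1 and Slc7a2, and cluster 7 (1012, 869 and 12 cells, led by Tnf, Ereg, Cxcl1 and Egr2) had lower ones. In LPS with Reg3g and LPS, Acod1 had 164.2 and 193.7 CPM in cluster 5, 195.1 and 224.2 in cluster 6, and 34.3 and 71.6 in cluster 7, where the log2 ratio was -1.06 [-1.31, -0.81]. Lymphoid-like cells had 51.9 CPM [24.9, 95.5] of Acod1 in LPS with Reg3g and 9.0 in LPS, from 10 and 2 UMIs. The cluster 7 level in LPS with Reg3g lay inside that interval, so its ratio is not read as a difference in expression. Cluster 7 made up 24.6% and 17.3% of alveolar-macrophage-like cells. Slc7a2 had 1593.7 and 1573.8 CPM in cluster 5, 1627.7 and 1709.0 in cluster 6, and 580.6 and 690.6 in cluster 7. The cluster led by the TNF gene and the growth factor Ereg was thus the one with least Acod1 and least Slc7a2 of these 3.

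The higher Ass1 level with Reg3g was in clusters 5 and 6. It had 64.4 CPM in LPS with Reg3g and 45.0 in LPS in cluster 5 (log2 0.52 [0.38, 0.66]), and 61.9 and 44.0 CPM in cluster 6 (log2 0.49 [0.32, 0.67]). In cluster 7 it had 16.5 and 18.9 CPM (log2 -0.20 [-0.62, 0.23]). Lymphoid-like cells had 31.2 and 13.5 CPM of Ass1, from 6 and 3 UMIs, and the part of free RNA in these ratios was not tested. The PBS alveolar macrophages lay in cluster 19 (54, 61 and 3449 cells), where Slc7a2 had 284.8, 381.2 and 362.2 CPM in LPS with Reg3g, LPS and PBS. The few LPS cells grouped there were close to PBS cells in Slc7a2. In cycling alveolar-macrophage-like cells (cluster 15; 73, 65 and 134 cells) Slc7a2 had 541.2, 973.8 and 247.1 CPM, and Arg2 had 3 UMIs in LPS with Reg3g and 23 in LPS (log2 -3.45 [-5.83, -1.73]).

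**Figure D4:**
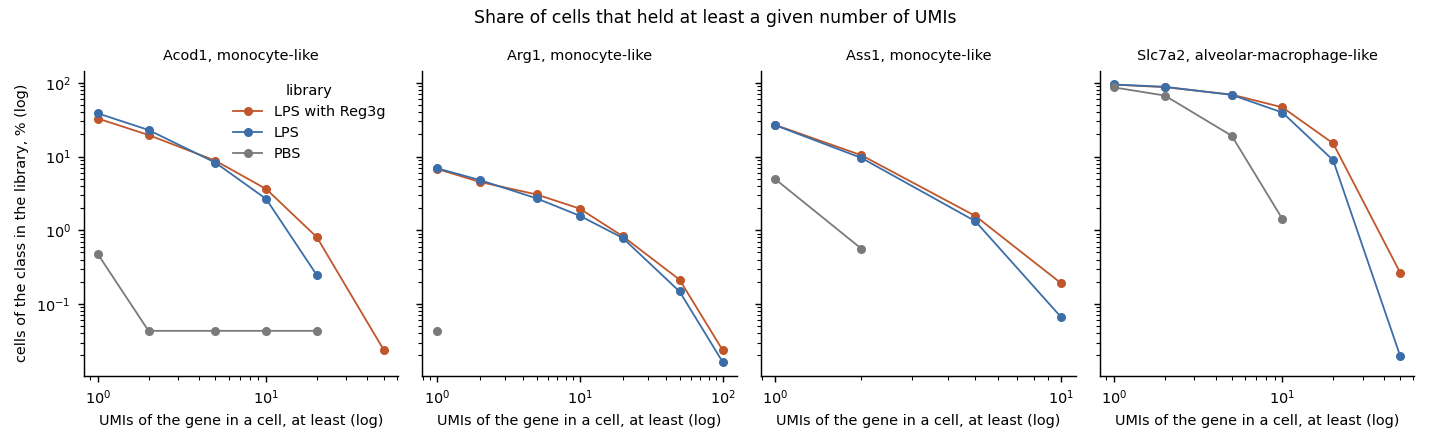
Share of cells of a class (%, log axis) that held at least the number of UMIs on the x axis (log), for LPS with Reg3g, LPS and PBS. Slc7a2 spans most alveolar-macrophage-like cells (46.6%, 39.7% and 1.42% with at least 10 UMIs), whereas Arg1 is found in 6.85%, 6.98% and 0.0432% of monocyte-like cells.

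Co-detection was read after thinning every cell to 1000 UMIs. Over the monocyte-like class, cells with an Arg1 UMI held Acod1 more often than cells without (25.2% against 15.8% in LPS with Reg3g, and 34.1% against 20.0% in LPS). Within cluster 9 the order was the other way. There 27.0% [19.8, 35.1] of Arg1-positive cells held Acod1 in LPS with Reg3g, against 44.2% [40.5, 47.9] of Arg1-negative cells, and in LPS 36.3% [29.5, 43.5] did, against 44.0% [41.3, 46.7]. Over the class, both genes were thus high in the same cluster, while inside it Acod1 was found less often in cells with Arg1 than in those without, in counting-error intervals that do not overlap in LPS with Reg3g and do overlap in LPS.

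Odc1, the next step after arginase, was found in 12.1% of Arg1-positive cells of cluster 9 in LPS with Reg3g, against 5.64% of Arg1-negative cells, and in LPS in 11.4% against 5.89%. Ass1 was found in 26.2% [19.2, 34.3] of Arg1-positive cells of cluster 9, against 17.6% [14.9, 20.6] of negative ones, in LPS with Reg3g, and in 20.2% against 19.3% in LPS. The gap for Ass1 was small in LPS, and its difference between the libraries was not tested. Acod1 was found in 43.6% of Ass1-positive cells of cluster 9, against 40.8% of Ass1-negative cells, in LPS with Reg3g, and in 50.8% [45.0, 56.6] against 41.1% [38.4, 43.9] in LPS. In alveolar-macrophage-like cells Acod1 was found in 15.0% of Slc7a2-positive cells, against 7.71% of negative cells, in LPS with Reg3g, and in 17.0% against 11.3% in LPS. Inside cluster 5 the shares were 15.7% against 11.3% and 17.8% against 14.9%. Cells of 1 library share their preparation, and these shares are descriptions.

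**Figure D5:**
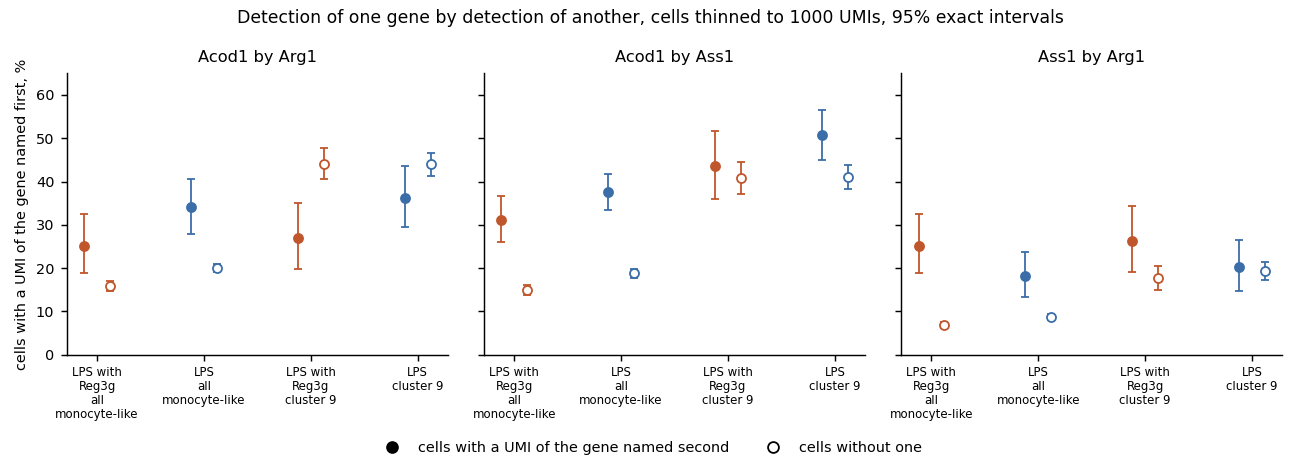
Share of cells with a UMI of one gene among cells with (left of each pair) and without a UMI of another, at 1000 UMIs per cell, in LPS with Reg3g and LPS, with exact Clopper-Pearson 95% intervals for counting error. In cluster 9, Acod1 is in 27.0% of Arg1-positive and 44.2% of Arg1-negative cells of LPS with Reg3g, and in 36.3% and 44.0% in LPS.

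The genes were also present in dendritic-cell clusters, with ratios that differed from one cluster to another. In cluster 3 (184, 428 and 341 cells), with type 2 dendritic cell genes, Acod1 had 318.9 CPM in LPS with Reg3g, 215.0 in LPS and 0.474 in PBS, and LPS with Reg3g was above LPS by a log2 of 0.57 [0.34, 0.80]. Ass1 had 173.0, 127.1 and 30.3 CPM, with a log2 ratio of LPS to PBS of 2.07 [1.66, 2.49] and of LPS with Reg3g to LPS of 0.44 [0.14, 0.75]. Odc1 ran the other way, with 47.5, 84.4 and 110.4 CPM and log2 ratios of -0.39 [-0.70, -0.08] for LPS to PBS and -0.83 [-1.36, -0.33] for LPS with Reg3g to LPS. Arg1 had 28, 19 and 1 UMIs, with a log2 ratio of LPS with Reg3g to LPS of 1.53 [0.64, 2.45].

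In cluster 13 (67, 281 and 740 cells), with type 1 dendritic cell genes, Odc1 had 276.3, 286.7 and 186.1 CPM in LPS with Reg3g, LPS and PBS, and LPS was above PBS by a log2 of 0.62 [0.45, 0.80]. Acod1 had 0, 21 and 1 UMIs there. Ass1 had 115.5, 67.1 and 51.8 CPM, with LPS with Reg3g above LPS by a log2 of 0.78 [0.23, 1.32]. This cluster was thus rich in Odc1 and poor in Acod1, relative to the monocyte clusters. Migratory dendritic cells (cluster 12; 135, 535 and 101 cells) had 166.0, 142.9 and 62.2 CPM of Ass1 and 12.5, 28.0 and 0 CPM of Acod1.

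Interstitial-macrophage-like cells had 101.1, 135.7 and 53.6 CPM of Slc7a2, 119.2, 113.6 and 61.5 CPM of Odc1 and 21.7, 54.3 and 6.15 CPM of Ass1 in LPS with Reg3g, LPS and PBS. In LPS against PBS 5 of 6 genes were higher by 2-fold or more and 0 were lower, against 9.92% and 15.6% of all genes in that class. Of these, Arg1 rested on 9 and 5 UMIs and Arg2 on 10 and 0, and Acod1, Arg1, Arg2 and Ass1 reached 10 CPM only in LPS. In LPS with Reg3g against LPS, Arg1 was at least 2-fold higher (19 against 9 UMIs, log2 1.17 [-0.05, 2.50]) and Ass1 lower (12 against 32 UMIs, log2 -1.32 [-2.42, -0.33]), against 6.68% of all genes higher and 7.89% lower in that class. The Ass1 level in LPS with Reg3g was below the 31.2 CPM of lymphoid-like cells there, so its ratio is not read as a difference in expression. The neutrophil-like class had 0 of 6 genes at least 2-fold apart, against 5.76% of genes higher and 10.7% lower. Its log2 ratio of LPS with Reg3g to LPS was 0.44 [0.10, 0.79] for Arg2 and 0.17 for Acod1.

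The other genes of these pathways were read from 4 lists. In arginine transport and recycling, 2 of 10 counted genes (of 22) were at least 2-fold higher and 1 lower in LPS than in PBS in alveolar-macrophage-like cells, with a median log2 ratio of -0.12, against 5.73% higher and 14.0% lower over all genes. The higher ones were Prmt1, the main arginine methyltransferase (152 CPM in LPS and 66.1 in PBS, with 121.5 and 74.4 in lymphoid-like cells), and Slc7a1, the housekeeping arginine transporter (37.6 and 14.9 CPM, with 49.5 and 49.6 CPM in lymphoid-like cells). The lower one was Gamt, which makes creatine (6.54 and 22.0 CPM). In monocyte-like cells 3 of 13 were higher and 1 lower, with a median of 0.33, against 10.7% higher and 8.49% lower over all genes. These were Gatm, the first step of creatine synthesis from arginine (24.8 CPM in LPS and 4.85 in PBS, with 0 and 3.10 in lymphoid-like cells), Prmt1 (165 and 52.8 CPM) and Aldh18a1, which makes the proline and ornithine precursor (17.1 and 7.34 CPM, below the 31.5 and 15.5 CPM of lymphoid-like cells), and the lower one was Padi2, which turns protein arginine into citrulline (11.4 and 65.3 CPM, with 27.0 and 46.5 in lymphoid-like cells).

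In polyamine synthesis and breakdown, 4 of 16 counted genes (of 20) were at least 2-fold higher and 1 lower in LPS than in PBS in monocyte-like cells, with a median of 0.29, against 10.7% and 8.49% over all genes. Srm, the spermidine synthase downstream of Odc1, had 41.5 CPM in LPS and 6.09 in PBS (log2 2.77), at or below the 45.0 and 12.4 CPM of lymphoid-like cells. Dohh and Eif5a, the hydroxylase and its substrate in the spermidine-derived hypusine pathway, had log2 ratios of 1.33 and 1.29, and Paox, a polyamine oxidase named after its value was seen, 1.06. In LPS and PBS, lymphoid-like cells had 58.5 and 37.2 CPM of Dohh, 553.3 and 325.4 of Eif5a, and 13.5 and 6.20 of Paox. Sat1, which acetylates polyamines for export or breakdown, was lower, with 777.5 CPM in LPS and 1846.6 in PBS (log2 -1.25), and lymphoid-like cells had 103.5 and 257.2 CPM. In alveolar-macrophage-like cells 1 of 13 was higher and 2 lower, with a median of 0.29, close to the 5.73% and 14.0% over all genes. Srm was again higher (57.9 and 22.1 CPM), and Sat1 (230.5 and 619.2 CPM) and the polyamine transporter Atp13a3 (79.9 and 217.5 CPM) were lower. Srm, Sat1, Dohh, Eif5a and Paox differed the same way in lymphoid-like cells, so these ratios are not read as particular to macrophages or monocytes. Whether the Srm level of monocyte-like cells is their own or free RNA was not tested.

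Of the other nitric oxide synthases and the genes of their cofactor tetrahydrobiopterin (12 genes, 7 counted in each class), 1 was at least 2-fold higher in LPS than in PBS in alveolar-macrophage-like cells and 0 in monocyte-like cells, and 0 were lower in either, against 5.73% higher and 14.0% lower over all genes in the first class and 10.7% and 8.49% in the second. The medians were -0.26 and 0.16. The higher one was Gch1, the first enzyme of cofactor synthesis, with 86.2 CPM in LPS and 33.1 in PBS (log2 1.38), and lymphoid-like cells had 58.5 and 31.0 CPM.

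Around the citrate cycle (27 genes), 0 of 25 counted genes were higher by 2-fold or more and 1 was lower in alveolar-macrophage-like cells, with a median of -0.08, against 5.73% and 14.0% over all genes. Idh1, the cytosolic isocitrate dehydrogenase, had 101.1 CPM in LPS and 223.0 in PBS (log2 -1.14), and it lies within 2-fold of the median of all genes. In monocyte-like cells 3 of 24 were higher, Idh3a (log2 1.20), Mdh2 (log2 1.14) and Suclg1 (log2 1.08), and 0 lower, with a median of 0.31, close to the 10.7% higher over all genes. Lymphoid-like cells had 206.9 and 130.1 CPM of Mdh2 and 94.5 and 34.1 of Suclg1 in LPS and PBS, so these ratios are not read as particular to monocytes. Idh3a ran the other way there, with 22.5 and 34.1 CPM. In LPS with Reg3g against LPS, 0 genes of the 4 lists were at least 2-fold apart in either class. Over all genes the shares were 0.0419% higher and 0.0699% lower in alveolar-macrophage-like cells, and 0.108% and 0.0949% in monocyte-like cells, so the lists did not stand apart. Among the farthest apart in that comparison, in monocyte-like cells, were Srm (30.6 CPM in LPS with Reg3g and 41.5 in LPS, log2 -0.44) and Sat1 (1017.8 and 777.5 CPM, log2 0.39). Lymphoid-like cells differed the same way, with 20.8 and 45.0 CPM of Srm and 228.5 and 103.5 of Sat1, so these ratios are not read as particular to monocytes.

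Over 20 groups of at least 50 cells, formed by class and library, the genes most like each of the 7 in level were ranked by Pearson's r of log2(CPM + 1) among 5733 genes. These groups share libraries and depth, and r is given as a description. For Acod1 they were the kinase gene Ikbke (0.939), Lcn2 (0.856), Slfn2 (0.83), Tnip1 (0.827) and Ier3 (0.819). For Slc7a2 they were the alveolar macrophage markers Car4 (0.972) and Marco (0.932), with Gpnmb (0.921), St13 (0.907) and Vps29 (0.903). Arg1 was most like Upp1 (0.829), Ikbke (0.815), Hif1a (0.787), Saa3 (0.782) and Med15 (0.781).

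Arg2 was most like the cystine transporter gene Slc7a11 (0.864), followed by N4bp1 (0.853), Il36g (0.85), Tarm1 (0.848) and Tnip1 (0.838). Ass1 was most like Acot7 (0.844), Nfkbia (0.843), Tpm3 (0.831), Traf1 (0.821) and AA467197 (0.797). Odc1 was most like Ccdc107 (0.85), the splicing factor gene Srsf3 (0.85), Rbbp7 (0.823), Uchl3 (0.823) and Nol7 (0.793). Between the 7 genes themselves r was 0.74 for Acod1 and Arg1, 0.71 for Acod1 and Arg2, 0.47 for Acod1 and Ass1, and 0.16 for Acod1 and Slc7a2. Odc1 ran against Arg2 (-0.56) and Nos2 (-0.59).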

How the data were processed

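Unique molecule (UMI) counts per gene and barcode were deposited by the authors, made with Cell Ranger 9.0.1, bcl2fastq 5.0.1 and the build mm10, with Seurat 4.4.0 also named, per the submitters' processing notes. The counting annotation and strand setting are not given in the sources used here. Cell types come from clusters made here.

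The filter asked for 500 or more genes, 1000 or more UMIs and no more than 15% of UMIs from mitochondria (544, 1135 and 343 barcodes of LPS with Reg3g, LPS and PBS removed), and the highest doublet scores were removed at 0.4% per 1000 barcodes (388, 865 and 272). The libraries held 60942042, 70474636 and 52354207 UMIs. Leiden clusters (resolution 1) were drawn from counts scaled to 10000 per cell, with 15 neighbours on 30 components of 2000 variable genes, and called X-like from 19 marker lists by a scoring rule set after the clusters were seen. A second clustering left out the 7 genes and the 4 pathway lists, and its cluster numbers are its own. The class numbers in the account of LPS and PBS cells come from the first.

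For each class, a library's counts were added up and set against their total (CPM). Ratios carry exact conditional binomial, CPM exact Poisson and shares exact Clopper-Pearson 95% intervals. A count of 0 was set to a floor of 3 counts per library, which makes the ratio a bound. A gene counts as higher or lower at 2-fold or more, where the higher library had 10 CPM or more. Each group had 1 library, so no p-value was computed. On simulated counts with known ratios the calculation was tested on each comparison of both main classes. For co-detection and thinned shares each cell was thinned to 1000 UMIs, which every kept cell had.

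The 7 genes are always named. From each list up to 4 genes with the largest log2 ratio in size were named per class and comparison, and for each of the 7 with at least 50 CPM somewhere the 5 genes with the highest r. The genes and lists were chosen with earlier results of these data known. Software was Python 3.11.15, numpy 2.4.6, scipy 1.17.1, pandas 2.3.3, scanpy 1.11.5, scikit-learn 1.9.0, igraph 0.11.9 and matplotlib 3.10.9. Alternatives were other filters, resolutions, scalings, CPM minimums, thinning depths and doublet settings. Promoter sequences are RefSeq's.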

Additional observations from a re-analysis of the deposited data

Results flagged for a closer look

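The log2 ratio of LPS with Reg3g to LPS for Ass1 was 0.37 [0.26, 0.47] in alveolar-macrophage-like cells and -0.17 [-0.26, -0.09] in monocyte-like cells, so that the classes lie on opposite sides of 0. The difference was not tested, since each group had 1 library. Lymphoid-like cells, used for the level of free RNA, had 31.2 and 13.5 CPM of Ass1, from 6 and 3 UMIs. The part of free RNA in these ratios was not tested.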

How the results depend on the processing

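No paired analysis was possible because each group had 1 library. Under the alternatives, 127 of 128 counts of the 7 genes and 59 of 64 counts of the lists stayed within 1.5 times the reported count, and 318 of 388 ratios stayed within their counting interval. Many of the counts were 0 and stayed 0, among them all those for LPS with Reg3g against LPS in the lists, and these are included as unchanged. No ratio with a call changed sign. At a minimum of 50 CPM, for LPS against PBS, 2 of the 7 genes were higher in alveolar-macrophage-like cells, the arginine list had 1 higher and 0 lower in these cells and 1 higher in monocyte-like cells, and the polyamine list had 2 higher in monocyte-like cells, since fewer genes were counted. At a minimum of 5 CPM the list of other nitric oxide synthases had 1 higher in monocyte-like cells. The log2 ratio of Acod1 in monocyte-like cells for LPS against PBS ran between 4.68 at clustering resolution 0.5 and 8.23 without cells holding mast cell or basophil markers, an alternative chosen after seeing the data. For LPS with Reg3g against LPS, Arg1 in monocyte-like cells changed sign under 5 alternatives and ran from -0.12 to 0.24, and Ass1 in alveolar-macrophage-like cells ran from 0.20 at a fixed depth to 0.46 at the cluster makeup of LPS, and was -0.06 over all cells of the libraries together. The low UMI counts of Nos2, and of Acod1 and Arg1 in PBS, limit their ratios.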

Other observations

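In PBS, Acod1 UMIs were held by few cells of unusual kind. The library had 127 Acod1 UMIs in 28 of 7860 cells. Of these, 7 cells with at least 4 UMIs each (4 to 25, median 18) held 105 UMIs (82.7%), and the other 21 cells held at most 2 each. The 7 cells had a median of 1746 UMIs in total, against 5923.5 in the library. They fell among lymphoid-like (6 cells) and monocyte-like cells (1 cell), and in the clustering without the 7 genes 6 of them were in the neutrophil-like class.

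Markers of mast cells and basophils summed to 46 UMIs (3135 CPM) in these 7 cells, against 128 UMIs (2.62 CPM) in the other 7853. Gata2, a transcription factor of mast cells and basophils, had 25 UMIs in 7 of 7 cells, against 90 UMIs in 35 of 7853. Cpa3 had 8 UMIs in 4 cells, Mcpt8, a basophil protease, 4 in 3, Ms4a2 4 in 3, Fcer1a 3 in 3 and Cd200r3 2 in 1, while the connective tissue mast cell genes Tpsb2 and Mcpt4 were at 0. The cells were picked for their Acod1 count after it was seen. Without them the PBS library had 0.450 CPM of Acod1, against 2.60 with them.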
